A study of Saccharomyces cerevisiae W303 with 86 samples.

Results

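The 10 genes described here encode the yeast enzymes and carriers at the branch point of pyruvate; they are 10 of the 7126 features in the deposited tables and were chosen by name, not by any measured value. All 10 were found, and all 10 passed the filter on low values in each set of libraries. In the SNF1, INH1 and puf3-15A sets PDC6 passed largely through cells without mitochondrial DNA. Of the libraries with PDC6 at or above 1 RPKM, such cells held all 6, all 9 and 5 of 6 in these sets. They held 2 of 4 in the oxidative phosphorylation set and 5 of 13 in the PUF3 set. The pyruvate decarboxylases were PDC1 (YLR044C, chromosome XII, 232390 to 234081), PDC5 (YLR134W, chromosome XII, 410723 to 412414) and PDC6 (YGR087C, chromosome VII, 651290 to 652981). The pyruvate dehydrogenase subunits were PDA1 (YER178W, chromosome V, 546817 to 548079), PDB1 (YBR221C, chromosome II, 665153 to 666253), LAT1 (YNL071W, chromosome XIV, 491523 to 492971) and PDX1 (YGR193C, chromosome VII, 884509 to 885741). The mitochondrial pyruvate carriers were MPC1 (YGL080W, chromosome VII, 358636 to 359028), MPC2 (YHR162W, chromosome VIII, 423072 to 423461) and MPC3 (YGR243W, chromosome VII, 977336 to 977776). Coordinates are those of the R64 gene annotation.

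Pyruvate, the end product of glycolysis, is decarboxylated to acetaldehyde in the cytosol during fermentation, or carried into the mitochondrion and oxidized to acetyl-CoA by the pyruvate dehydrogenase complex. Saccharomyces cerevisiae ferments most of its glucose, and PDC1 encodes the major decarboxylase; PDC5 is a second active isozyme that is known to rise when PDC1 is lost, and PDC6 is a minor one. In the carrier of the inner membrane Mpc1 pairs with Mpc2 in fermenting cells or with Mpc3 in respiring cells.

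The study, by its title and design text, asked how yeast adjusts its gene expression when oxidative phosphorylation fails, and deposited 86 libraries of the strain W303-1A: 78 of poly(A) mRNA in 25 groups and 8 of ribosome footprints in 4 groups. All cells grew in synthetic complete medium with 2% glucose to mid-log phase, and the labels give 3 biological replicates per mRNA group, 6 for the wild type of the first set, and 2 per footprint group. The libraries form 7 sets, each with its own control. The oxidative phosphorylation set held wild type, deletions of COR1 (complex III), COX9 (complex IV) and ATP7 (ATP synthase), and rho0 cells, which have lost mitochondrial DNA. The PUF3 set held wild type, puf3, atp7, atp7 puf3, rho0 and puf3 rho0 cells; Puf3 is an RNA-binding protein that binds many mRNAs of mitochondrial proteins. The puf3-15A set held wild type and rho0 cells, each with and without puf3-15A, an allele that blocks hyperphosphorylation of Puf3. The SNF1 set held wild type and snf1 cells, untreated or given 25 µg/ml ethidium bromide for 48 h, which removes mitochondrial DNA; Snf1 is the yeast AMP-activated kinase, needed to relieve glucose repression. The MIG1 set held ethidium bromide-treated snf1 and snf1 mig1 cells; Mig1 is a repressor acting downstream of Snf1. The INH1 set held wild type, rho0, rho0 with INH1, which encodes an inhibitor of the mitochondrial ATPase, under the copper-inducible CUP1 promoter, and the latter cells given 10 mM copper sulfate for 12 h. No wild-type or plain rho0 cells with copper are among these groups, so the effect of copper and that of INH1 induction cannot be told apart. The footprint set held wild type, rho0, puf3 and puf3 rho0 cells given 100 µg/ml cycloheximide for 2 min.

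Deleted genes had at most 1.77 RPKM (reads scaled by transcript length and library size) in the cells said to lack them and at least 18.8 elsewhere, and 6 mitochondrially encoded genes summed to at most 0.784 RPKM in rho0 and ethidium bromide-treated groups against 5.62 to 71.3 in the others. Depth recovered from the RPKM steps was 8622302 to 14403018 reads in the mRNA libraries outside the MIG1 set, 18807523 to 71107907 within it and 1149911 to 2983579 in the footprint libraries. W303-1A is of mating type a, but 17 libraries of 6 groups did not show it: 7 a-specific genes summed to 16.8 to 42.3 RPKM and 5 haploid-specific genes to 7.73 to 62.8 in the footprint wild type, the INH1-set wild type, both snf1 groups and both MIG1-set groups. The same sums were 1100 to 3046 and 339 to 572 in 66 libraries of 22 groups and 566 to 830 and 161 to 184 in the PUF3-set wild type, while 4 alpha-specific genes summed to 3.87 to 61.8 in all groups. Comparisons of snf1 with SNF1 cells, of rho0 with the INH1-set wild type and of footprints with the wild type, and in part those with the PUF3-set wild type, therefore set cells with unlike mating-type markers against each other, and that difference and the named one cannot be told apart. No snf1 library had the a-cell level, so no snf1 result can be given without these libraries; snf1 mig1 against snf1, and treated against untreated snf1, compare groups that lack them alike. Treated and untreated wild type both showed the a-cell signal, but the a-specific sum was 1173 to 1348 treated and 2257 to 2455 untreated, without overlap; its part in the results was not tested. Replicate 1 stood apart from replicates 2 and 3 in rho0 and in wild type of the PUF3 set, with a chi-square per degree of freedom of at least 59.4 and 40.5 against 2.30 and 2.48 between the other 2. Without wild-type library 1 no member's call was lost in this set, and MPC3 was then called in puf3 against wild type (-1.97, adjusted p = 6.0e-05), in atp7 against wild type (-0.85, adjusted p = 0.013) and in both interactions with puf3 (2.02 with rho0, 2.12 with atp7), as was PDB1 in atp7 (0.14, adjusted p = 0.013).

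Per unit of transcript length, PDC1 mRNA lay far above the other 9 genes, between 5761 and 10977 RPKM with a median of 9607 over the 78 mRNA libraries, and ranked between place 2 and place 22 of all features. It made up 99.5% to 99.8% of the summed RPKM of the 3 decarboxylases in every mRNA library. PDC5 lay between 13.6 and 35.2 RPKM with a median of 20.9, and PDC6 between 0.238 and 11.5 with a median of 1.19, which is 4 to 225 recovered reads per library. PDC1, PDC5 and PDC6 are close in sequence, as are MPC2 and MPC3, and how the authors assigned reads that map to several genes is not given in the sources used here, so the values of the rarer isogenes are uncertain.

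The 4 dehydrogenase genes had medians of 407 (PDA1), 395 (PDB1), 295 (LAT1) and 109 RPKM (PDX1). Within a library PDB1 was 0.967 of PDA1 in the median (range 0.645 to 1.08), LAT1 was 0.737 (0.623 to 0.826) and PDX1 0.268 (0.209 to 0.344). Among the carriers MPC2 had the highest level with a median of 666 RPKM, against 85.4 for MPC1 and 19.4 for MPC3. MPC3 and PDC6 were the genes that varied: their highest library was 54.6-fold and 48.2-fold above their lowest, against 1.76-fold to 2.6-fold for the other 8.

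**Figure D1:**
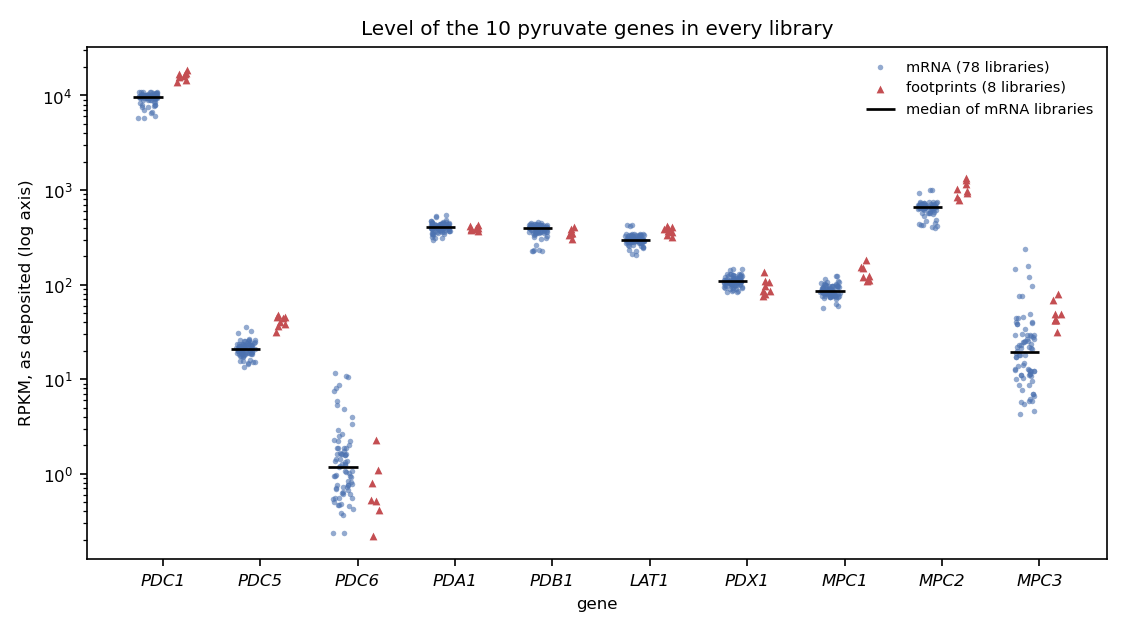
RPKM of the 10 genes (log axis) in each library, by gene, as deposited; points are single libraries, mRNA and footprints apart. PDC1 lies at the top, between 5761 and 18477 RPKM, PDC6 at the bottom, and MPC3 and PDC6 spread widest. 1 footprint library with PDC6 at 0 is not drawn.

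Differences between groups were tested with limma on log2(RPKM + 1), and a change is called where the Benjamini-Hochberg adjusted p over all features tested is under 0.05; fold changes on this scale understate those of low genes such as PDC6. The labels call the replicates biological, and p-values measure the spread between them. These are whole-culture measurements, in which fewer cells of a kind and less RNA per cell cannot be told apart. In the 23 mRNA comparisons MPC3 gave 12 calls (10 higher, 2 lower), PDB1 11 (7 and 4), PDC6 9 (8 and 1), LAT1 9 (8 and 1), PDC1 8 (2 and 6), PDA1 8 (8 and 0), MPC2 8 (4 and 4), PDC5 5 (2 and 3), MPC1 5 (2 and 3) and PDX1 3 (2 and 1). Between 2.17% and 72% of all features were called in each of these comparisons, so the counts are not read as a ranking of the genes by response.

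The members' count per comparison is read against the share of all features called. In the oxidative phosphorylation set 2 of the 10 genes were called in cor1 (6.22% of all features), 1 in cox9 (6.62%), 3 in atp7 (45.3%) and 4 in rho0 (48.8%). In the PUF3 set 3 were called in atp7 against wild type (54.8%), 3 in puf3 rho0 against rho0 (30.4%), 5 in atp7 puf3 against puf3 (63.5%) and 5 in puf3 rho0 against puf3 (60.3%). No member was called by limma in that set for puf3 against wild type (15.6%; 1 at an unadjusted p under 0.05), rho0 against wild type (39.9%; 1) or atp7 puf3 against atp7 (2.17%; 0), and limma-voom on recovered reads called 0 in each. In the puf3-15A set 3 were called in rho0 (54.8%), 3 in puf3-15A rho0 against rho0 (18%) and 6 in puf3-15A rho0 against puf3-15A (65.6%); puf3-15A against wild type gave 0 (13.8%; 2 at an unadjusted p under 0.05, and 1 by limma-voom). In the SNF1 set 4 were called in snf1 (29.1%), 5 in ethidium bromide-treated wild type (72%), 7 in treated snf1 against treated wild type (61%) and 5 in treated against untreated snf1 (58.9%). The MIG1 comparison gave 3 (30.8%). In the INH1 set 5 were called in rho0 (70.3%), 2 with the CUP1p-INH1 construct (17.7%) and 9 with copper (71.4%). With 10 genes, 1 call more or fewer shifts the members' share by more than many of these differences from the background, so no direction is read from them. The counts for cor1 and cox9 above use all 6 wild-type libraries as control. Against wild-type libraries 4 to 6 alone 5 members were called in cor1 (42% of features) and 4 in cox9 (42.5%), and against libraries 1 to 3 alone 2 (8.72%) and 1 (8.36%). Comparisons within a set that use the same control share its libraries, so their values stand side by side and are not independent.

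**Figure D2:**
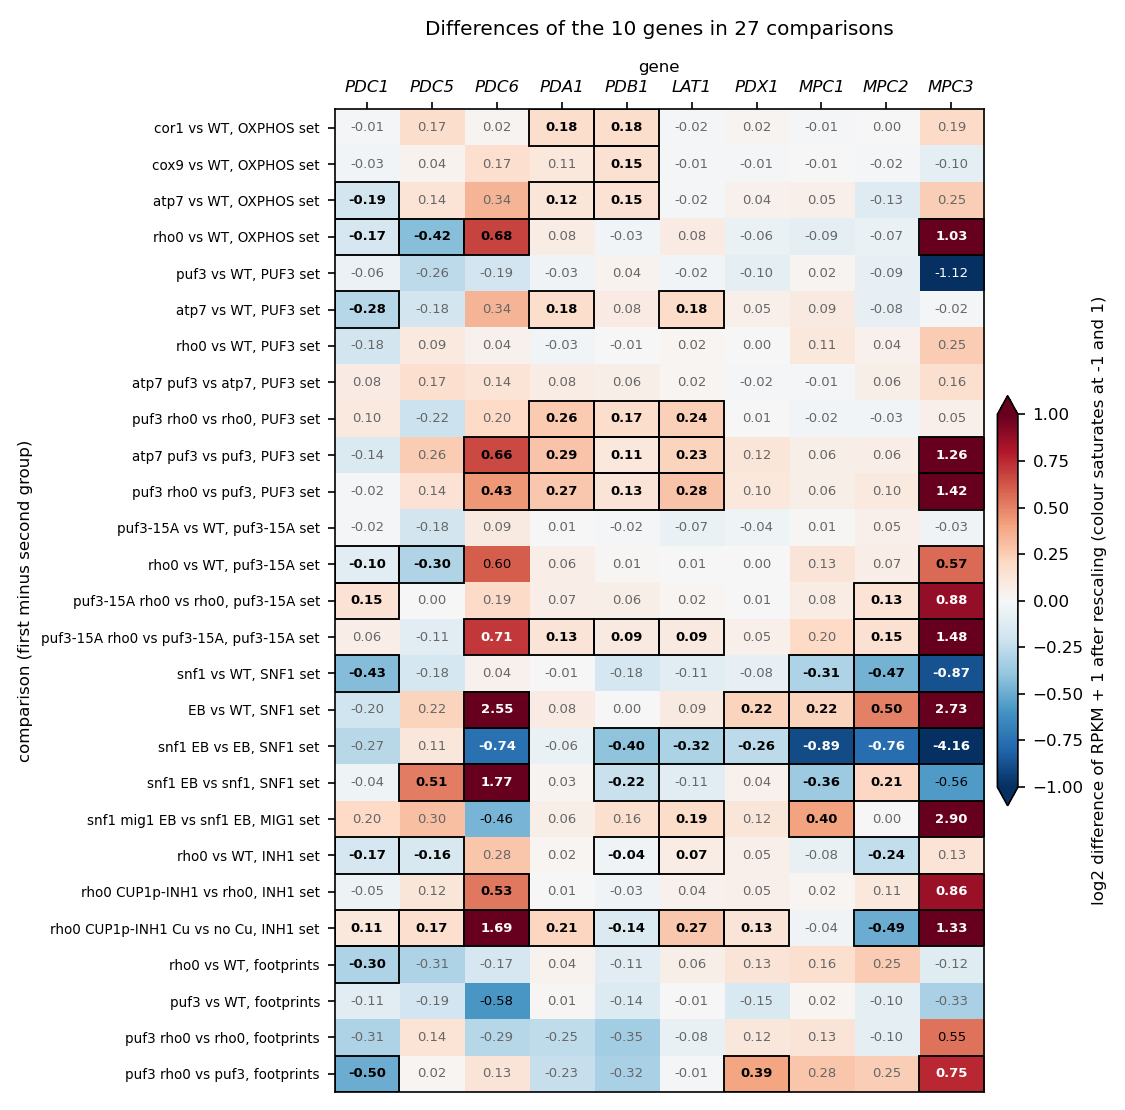
Log2 change of each gene (columns) in the 23 mRNA and 4 footprint comparisons (rows), printed in each cell; boxed bold values have an adjusted p under 0.05, and colour saturates at 1 in either direction. The values beyond 1 in size are those of MPC3 and PDC6, from -4.16 to 2.90, while PDA1, PDB1, LAT1 and PDX1 stay within 0.5 of 0.

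PDC1, the major decarboxylase, fell in 6 of 23 mRNA comparisons, each time by less than 0.5 on the log2 scale. In the oxidative phosphorylation set wild type read 10432, 10679, 10840.5, 10082, 9834 and 9872 RPKM, atp7 9869.6, 9816 and 9359.5, and rho0 9358, 9539.7 and 9965. Of the atp7 and of the rho0 libraries 2 each lay below the lowest wild-type library and 1 each within its range in deposited RPKM, and after rescaling of the libraries the groups no longer overlapped. PDC1 was lower by a log2 of -0.19 (SE 0.04, adjusted p = 0.0017) in atp7 and -0.17 (SE 0.04, adjusted p = 0.0027) in rho0, and neither call held without rescaling (-0.09 and -0.10).

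In the INH1 set wild type read 10222, 10146 and 10222 RPKM and rho0 9876, 9763 and 9765, without overlap, for a log2 of -0.17 (SE 0.02, adjusted p = 1.5e-06). The lowest PDC1 levels were those of snf1 cells, with 7664, 7580.3 and 8455 RPKM in untreated snf1 against 9714, 9430.4 and 9903 in wild type (-0.43, SE 0.11, adjusted p = 0.015). The call was lost without wild-type library 1 or 3 or snf1 library 2, at -0.41 to -0.43, and with only these groups fitted (-0.43). Treated wild type read 7857, 8282 and 7975 RPKM and treated snf1 7981, 8448 and 7601, which overlap. The low level was thus not limited to snf1 cells. In deposited RPKM treated wild type lay below every untreated wild-type library, but the change was not called. The MIG1 set, sequenced deepest, had the lowest deposited values of all, 5842, 5761 and 6467 in treated snf1, but levels set across sets were not tested. PDC1 rose in puf3-15A rho0 against rho0 (9671, 9820.1 and 9565 against 8926, 9006 and 9157 RPKM; 0.15, SE 0.03, adjusted p = 0.0048) and with copper (10874, 10921 and 10553 against 9570.4, 9447 and 9544; 0.11, SE 0.02, adjusted p = 6.4e-05), both without overlap.

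PDC5, the second isozyme, did not mirror PDC1: over the 25 mRNA groups the correlation of their levels in deposited RPKM was 0.06. In the oxidative phosphorylation set wild-type libraries 1 to 3 read 22.9, 22.4 and 22.9 RPKM and libraries 4 to 6 read 15.6, 16.1 and 14.8. Those of rho0 read 13.6, 15.3 and 14.5, far below the first trio and, in deposited RPKM, overlapping the second. The drop of -0.42 (SE 0.12, adjusted p = 0.0083) therefore rests on libraries 1 to 3; against libraries 4 to 6 alone it was -0.19 and not called. In the file headers the latter are numbered with the rho0 libraries and the former with the cor1 ones, and which of them is the matched control was not tested.

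In the puf3-15A set PDC5 read 24.8, 23.7 and 25.4 RPKM in wild type and 20.9, 19.0 and 20.2 in rho0, without overlap, and fell by 0.30 on the log2 scale (SE 0.06, adjusted p = 0.0010). The highest PDC5 levels of the series were those of treated snf1 cells, 30.5, 35.2 and 32.4 RPKM. Untreated snf1 cells read 24.2, 18.8 and 22.4, all below them, and the rise with ethidium bromide was 0.51 (SE 0.10, adjusted p = 0.00084). In wild-type cells the treatment moved PDC5 from 20.8, 22.2 and 24.2 to 23.7, 25.5 and 25.9 RPKM, which overlap (0.22, adjusted p = 0.067).

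PDC6, the minor isozyme, was close to the detection limit in most groups and stood out in 3. Wild-type cells of the SNF1 set read 0.689, 0.552 and 0.711 RPKM and ethidium bromide-treated ones 8.76, 8.08 and 7.42. Every treated library was far above every untreated one, a 12.4-fold ratio of mean RPKM, and the log2 change was 2.55 (SE 0.17, adjusted p = 3.3e-08). PDC6 passed the filter in this set only through the treated groups, so a difference was built into its passing; with no filter the same change had an adjusted p of 8.6e-09. Cells lacking SNF1 also raised PDC6 on treatment, from 0.614, 0.977 and 0.727 to 5.36, 5.91 and 4.86 RPKM (1.77, SE 0.17, adjusted p = 3.3e-06, or 9.1e-07 with no filter). The treated snf1 libraries all lay below the treated wild type (-0.74, SE 0.17, adjusted p = 0.0024), and the response differed between the genotypes by -0.79 (SE 0.24, adjusted p = 0.019), a difference that was not called without the first treated wild-type library (-0.72) or without rescaling (-0.61).

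Copper gave the highest PDC6 level of all 25 mRNA groups: 11.5, 10.5 and 10.8 RPKM against 2.22, 2.91 and 2.51 in the same cells without copper, with no overlap (1.69, SE 0.12, adjusted p = 6.7e-08). The construct alone already read above rho0 cells without it (1.65, 1.36 and 1.32 RPKM; 0.53, SE 0.12, adjusted p = 0.011), a call that was lost without construct library 2 (0.46). In the order of the 25 group means copper-treated cells (10.95 RPKM), treated wild type (8.09) and treated snf1 (5.37) each stood above the next group with no shared values, and 20 of all 24 neighbouring pairs overlapped. In the SNF1 set and with copper the summed RPKM of 8 general stress genes moved with PDC6. It was 628 to 748 in wild type and 6182 to 7081 after treatment, and 727 to 2028 and 1867 to 2562, which overlap, in snf1. Without and with copper it was 3785 to 3887 and 14441 to 15076, and in rho0 cells without the construct 2788 to 3035. In the MIG1 set the sum was higher in snf1 mig1 (1766 to 1984 against 1056 to 1190), where PDC6 was lower but not called as reported. In puf3 rho0 it was 4509 to 5335 at a PDC6 of 1.17 to 1.35 RPKM. The part of the stress shift in the PDC6 results was not tested.

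**Figure D3:**
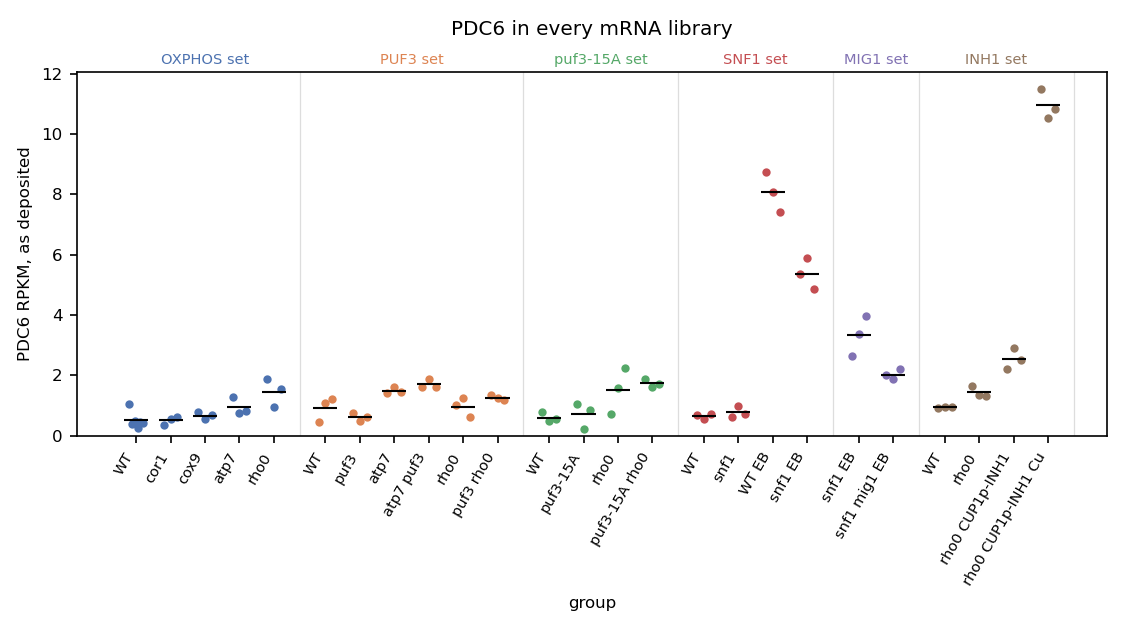
PDC6 RPKM (linear axis from 0) in each library, by group; points are libraries and short lines the group means (EB, ethidium bromide; Cu, copper; OXPHOS, oxidative phosphorylation). Copper-treated rho0 CUP1p-INH1 cells (10.5 to 11.5), ethidium bromide-treated wild type (7.42 to 8.76) and treated snf1 (4.86 to 5.91) lie above all other mRNA groups.

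Elsewhere the PDC6 changes in cells without mitochondrial DNA were smaller, and not all were called. Wild type of the oxidative phosphorylation set read 1.05, 0.384, 0.474, 0.239, 0.470 and 0.422 RPKM and rho0 1.88, 0.947 and 1.56, overlapping through the first wild-type library (0.68, SE 0.18, adjusted p = 0.0052; not called at 0.56 against wild-type libraries 1 to 3). Against wild type, rho0 gave 0.04 in the PUF3 set, 0.60 in the puf3-15A set and 0.28 in the INH1 set, none called as reported. With no filter the change in the INH1 set was called by limma (0.28, adjusted p = 0.024). The calls in puf3 rho0 against puf3 (0.43) and puf3-15A rho0 against puf3-15A (0.71) were each lost in 5 fits with 1 library left out. PDC6 was also called in atp7 puf3 against puf3 (0.66), where mitochondrial DNA is kept, and no setting lost that call. Among 8 comparisons of cells without mitochondrial DNA with their own control, no 2 of which share a library, the PDC6 change ranged from 0.04 to 2.55 on the log2 scale. This range is a description, because in the SNF1, INH1 and puf3-15A sets the gene passed the filter mostly through such cells. In the same comparisons PDC1 was called lower in 3 and higher in 0, and PDC5 higher in 1 and lower in 3. Across them 39.9% to 72% of all features were called, so these counts too are a description.

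The 4 dehydrogenase genes moved little and not as a block. PDA1 encodes the alpha and PDB1 the beta subunit of the decarboxylating E1 component, LAT1 the acetyltransferase E2 and PDX1 the protein that anchors the E3 component. Over the 25 mRNA groups LAT1 and PDA1 correlated at 0.85, PDX1 and PDA1 at 0.82, and PDB1 and PDA1 at 0.52. These values come from deposited RPKM without rescaling, and the points share library sets, so they are a description. The part of library scale in them was not tested.

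PDA1 and PDB1 parted most with copper. Cells with the construct read 433, 432 and 433 RPKM of PDA1 without copper and 540.0, 527 and 515 with it, every copper library higher (0.21, SE 0.02, adjusted p = 8.4e-07). PDB1 went from 418, 408 and 415 down to 395, 394 and 392 RPKM, every copper library lower (-0.14, SE 0.02, adjusted p = 1.1e-05). LAT1 rose from 341, 333 and 337 to 432, 432 and 418 RPKM (0.27, SE 0.02, adjusted p = 8.2e-08), and PDX1 from 128, 126 and 124 to 145, 143 and 147 (0.13, SE 0.03, adjusted p = 0.0005), neither with overlap. The ratio of PDB1 to PDA1 was 0.967, 0.944 and 0.957 without copper and 0.732, 0.748 and 0.762 with it. The stress sum was 3785 to 3887 without copper and 14441 to 15076 with it, and its part in these changes was not tested.

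The ratio was also low in treated snf1 cells. PDA1 read 377, 384 and 367 RPKM in treated wild type and 407, 449 and 445 in treated snf1; after rescaling the change was -0.06 (adjusted p = 0.42). PDB1 read 349.8, 353 and 319.9 RPKM against 308, 323 and 301, and was lower by -0.40 (SE 0.07, adjusted p = 0.00018). LAT1 (-0.32, SE 0.05, adjusted p = 0.00016) and PDX1 (-0.26, SE 0.05, adjusted p = 0.0007) were called lower too, although deposited LAT1 was 294, 291 and 282 against 277, 279 and 281 RPKM and PDX1 129.7, 129.9 and 125 against 128, 128 and 130.5. The median of all features moved by 0.25 between deposited and rescaled values in this comparison, so without rescaling LAT1 was -0.05 and PDX1 0.01, neither called, and PDA1 was called higher at 0.20. The ratio of PDB1 to PDA1 within a library, which scaling does not touch, was 1.01, 0.931 and 0.946 in wild type, 0.928, 0.919 and 0.872 in treated wild type, 0.871, 0.816 and 0.876 in snf1 and 0.757, 0.721 and 0.678 in treated snf1. The treated snf1 libraries lay below all other libraries of the set, and those of the MIG1 set, also treated and lacking SNF1, lay at 0.645 to 0.783.

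**Figure D4:**
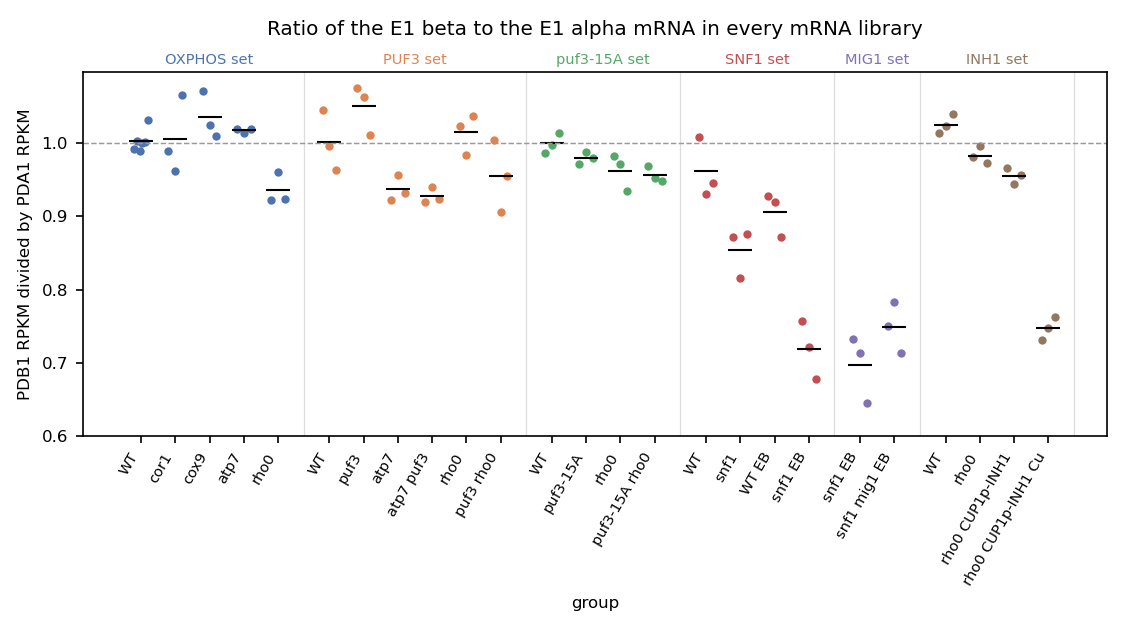
Ratio of PDB1 to PDA1 RPKM in each library, by group (linear axis that starts at 0.6, not at 0; dashed line at 1); points are libraries and short lines the group means. Copper-treated cells (0.732 to 0.762), treated snf1 (0.678 to 0.757) and both MIG1-set groups (0.645 to 0.783) sit lowest.

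Over the 4 sets that hold both rho0 and wild type, the log2 ratio of PDB1 to PDA1 was lower in rho0 by -0.05 (SD 0.05 over 4 sets; exact permutation test within sets, two-sided, p = 0.00376, adjusted over 4 ratios 0.0150). Its value was -0.10 in the oxidative phosphorylation set, 0.02 in the PUF3 set, -0.05 in the puf3-15A set and -0.06 in the INH1 set. Without the first of these sets the adjusted p was 0.418 (-0.03). The corresponding ratio of PDX1 to LAT1 changed by -0.05 (adjusted p = 0.0566) and that of PDC5 to PDC1 by -0.05 (adjusted p = 0.516), so neither passed.

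In cor1 both E1 genes rose slightly, and in cox9 PDB1 alone was called. PDA1 and PDB1 were both higher in cor1 (0.18, SE 0.04, adjusted p = 0.0067 and 0.18, SE 0.03, adjusted p = 0.0019), and PDB1 was higher in cox9 (0.15, SE 0.03, adjusted p = 0.0053), where PDA1 was at 0.11 (adjusted p = 0.079). In atp7 of the same set both rose (0.12, SE 0.04, adjusted p = 0.01 and 0.15, SE 0.03, adjusted p = 0.0014), while rho0 gave values of 0.08 and -0.03 that did not pass. Of these, PDA1 in cor1 was not called when only the groups compared were fitted, and PDA1 in atp7 was not called with wild-type libraries 1 to 3 alone (0.09).

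Deletion of PUF3 raised 3 dehydrogenase genes in rho0 cells. PDA1 read 384, 361 and 344 RPKM in rho0 and 433, 470.0 and 448 in puf3 rho0 (0.26, SE 0.05, adjusted p = 0.0025). PDB1 read 393, 355 and 357 against 435, 426 and 427 (0.17, SE 0.04, adjusted p = 0.0057). LAT1 read 283, 276 and 265 against 332, 338 and 336 (0.24, SE 0.04, adjusted p = 0.0010). All 9 puf3 rho0 values exceeded all of the matching rho0 values, whereas PDX1 did not change beyond its spread (0.01, adjusted p = 0.96). These were 3 of 10 members, against 30.4% of all features. LPD1, which encodes the E3 subunit of the complex, also rose (0.41, SE 0.05, adjusted p = 4.6e-05). Of 9 partner genes of the dehydrogenase, LPD1 among them, 2 were called higher and 2 lower. Without rho0 library 1 the changes were 0.28 (PDA1), 0.19 (PDB1) and 0.23 (LAT1), all still called, and PDC5 was called lower there (-0.38, adjusted p = 0.012). In the comparison of the puf3 effect between rho0 and wild type, PDB1 was then called too (0.16, adjusted p = 0.037). The stress sum moved with them, at 1184 to 3149 in rho0 and 4509 to 5335 in puf3 rho0, as did that of 8 ribosome biogenesis genes, at 3042 to 3381 and 1898 to 2347; their part in the result was not tested.

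The same deletion without loss of mitochondrial DNA gave -0.03 for PDA1, 0.04 for PDB1 and -0.02 for LAT1, none called. The difference between the responses was 0.30 for PDA1 (SE 0.08, adjusted p = 0.0077) and 0.26 for LAT1 (SE 0.06, adjusted p = 0.0041), 2 of 10 members against 37% of all features. It involves the PUF3-set wild type, whose mating-type markers were intermediate. The interaction of puf3 with atp7 gave 0 called members (limma, 7.52% of features; 1 at an unadjusted p under 0.05, 0 by limma-voom), and atp7 puf3 cells read 474, 478 and 458 RPKM of PDA1 against 334, 341 and 369.9 in puf3 (0.29, SE 0.05, adjusted p = 0.00031). In the puf3-15A set PDA1, PDB1 and LAT1 rose by 0.09 to 0.13 in puf3-15A rho0 against puf3-15A. The LAT1 call was lost without puf3-15A library 2 or 3 or puf3-15A rho0 library 2 (0.07 to 0.08) and the PDB1 call without the latter (0.08). In that set puf3-15A rho0 against rho0 gave 0.07, 0.06 and 0.02, none called.

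MPC3, the carrier subunit of respiring cells, had the widest range of the 10 genes in mRNA. In the SNF1 set wild type read 28.4, 29.7 and 23.1 RPKM and ethidium bromide-treated cells 156, 146 and 236, so that each treated library was above each untreated one (2.73, SE 0.28, adjusted p = 2e-06). Cells lacking SNF1 read 11.1, 13.7 and 25.1 untreated and 8.65, 11.3 and 12.6 treated, which overlap (-0.56, SE 0.28, adjusted p = 0.11). Treated snf1 cells were thus below treated wild type by a log2 of -4.16 (SE 0.28, adjusted p = 9.2e-08), and the response to treatment differed by -3.29 (SE 0.40, adjusted p = 3e-05). Both calls held with each library left out and in the other settings tried. The stress sums, 628 to 748 and 6182 to 7081 in wild type, were 727 to 2028 and 1867 to 2562 in snf1; the snf1 groups, unlike the wild type, lacked the a-specific signal.

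The untreated pair, snf1 against wild type, was less firm: the snf1 library at 25.1 RPKM overlapped the wild type, and the change of -0.87 (SE 0.28, adjusted p = 0.036) lost its call without library 1 or 2 of either group (-0.60 to -0.83), with limma-voom and with only these groups fitted. MPC1, the shared partner subunit, read 109.7, 105 and 108 RPKM in wild type, 123, 116 and 122 after treatment, 100.4, 90.0 and 96.5 in snf1 and 83.6, 72.9 and 76.1 in treated snf1. It rose with treatment in wild type (0.22, SE 0.06, adjusted p = 0.0039) and fell in snf1 by 0.36 on the log2 scale (SE 0.06, adjusted p = 0.0002), a difference of -0.58 (SE 0.08, adjusted p = 0.0001) that held in every setting.

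MPC2, the partner of fermenting cells, read 727, 697 and 741 RPKM in wild type and 933, 1004 and 990.2 after treatment (0.50, SE 0.07, adjusted p = 4.2e-05). In snf1 it read 576, 571 and 573, all below the wild type (-0.47, SE 0.07, adjusted p = 0.00056), and 671, 739 and 667 after treatment, all above untreated snf1 (0.21, SE 0.07, adjusted p = 0.025; not called without snf1 library 1 or 2 or treated snf1 library 2, at 0.14 to 0.21). All 3 carriers were called lower in treated snf1 than in treated wild type, MPC1 by -0.89 (SE 0.06, adjusted p = 7e-08) and MPC2 by -0.76 (SE 0.07, adjusted p = 1.8e-06). In all, 5 of 10 members differed in their response to treatment between SNF1 and snf1 cells, against 46.3% of features: MPC1, MPC2 (-0.29, SE 0.10, adjusted p = 0.034), MPC3, PDC6 and LAT1 (-0.20, SE 0.07, adjusted p = 0.036). The MPC2 difference was not called without any 1 of 9 of the 12 libraries (-0.24 to -0.31) and the LAT1 difference without any 1 of 7 (-0.17 to -0.20). Without rescaling neither was called (MPC2 -0.16, LAT1 -0.07), and LAT1 was not called with limma-voom either.

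MPC3 was higher in treated cells lacking both SNF1 and MIG1 than in those lacking SNF1 alone. The libraries read 5.92, 6.15 and 7.04 RPKM in treated snf1 and 45.3, 40.2 and 75.2 in treated snf1 mig1, with a wide gap between the groups (2.90, SE 0.18, adjusted p = 9.8e-05). MPC1 rose as well, from 62.7, 59.1 and 56.6 to 70.3, 75.5 and 80.1 RPKM (0.40, SE 0.07, adjusted p = 0.0049). LAT1 was called at 0.19 (SE 0.06, adjusted p = 0.049), a call lost without any library but treated snf1 library 3 (0.16 to 0.20), with median-ratio scaling (0.18) and without rescaling (0.12). MPC2 read 428, 448 and 416 against 407, 394 and 428, which overlap (0.00, adjusted p = 0.97). PDC6 read 2.66, 3.38 and 3.98 RPKM against 2.00, 1.87 and 2.20, lower in every snf1 mig1 library but not called (-0.46, SE 0.15, adjusted p = 0.051). With no filter the same change was called by limma (adjusted p = 0.035). Both groups lacked the a-specific signal alike, and the 8 stress genes summed to 1056 to 1190 in snf1 and 1766 to 1984 in snf1 mig1, against 6182 to 7081 in treated wild type of the SNF1 set; their part in the result was not tested.

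In rho0 cells with CUP1p-INH1, MPC3 read 29.0, 39.5 and 40.2 RPKM without copper and 75.6, 122 and 97.8 with it, all copper libraries higher (1.33, SE 0.22, adjusted p = 0.00017). MPC2 moved the other way, from 606, 615 and 643 to 467, 479 and 443 RPKM, all lower (-0.49, SE 0.03, adjusted p = 5.7e-08), and MPC1 did not pass (-0.04, adjusted p = 0.67). The construct alone was above rho0 (18.1, 18.1 and 21.6 RPKM of MPC3; 0.86, SE 0.22, adjusted p = 0.021), a call lost without rho0 library 1 or 2 or construct library 2 or 3 (0.78 to 0.82). The stress sum was 2788 to 3035 in rho0, 3785 to 3887 with the construct and 14441 to 15076 with copper, and its part was not tested. MPC3 as a share of MPC2 plus MPC3 was 17.4% ± 3.21 (SD, n = 3) with copper, 15.4% ± 3.43 in treated wild type and 11.4% ± 3.09 in treated snf1 mig1, against 5.50% ± 0.81 in the same cells without copper, 3.62% ± 0.55 in untreated wild type and 1.46% ± 0.18 in treated snf1, the control of each (n = 3). In the order of 25 mRNA group means treated wild type (179 ± 49.6 RPKM) and copper-treated cells (98.3 ± 23.0) each stood clear of the next group, and 22 of the 24 neighbouring pairs overlapped.

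**Figure D5:**
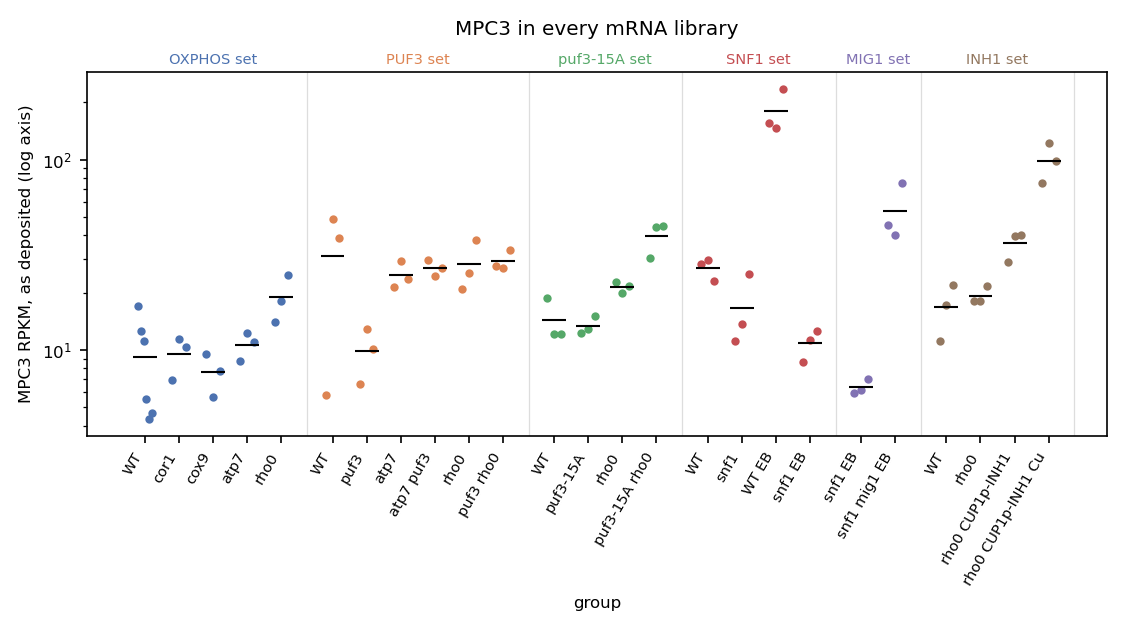
MPC3 RPKM (log axis) in each mRNA library, by group; points are libraries and short lines the group means (EB, ethidium bromide; Cu, copper; OXPHOS, oxidative phosphorylation). Treated wild type (146 to 236) and copper-treated cells (75.6 to 122) are highest, and treated snf1 of the SNF1 and MIG1 sets (5.92 to 12.6) is among the lowest.

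In rho0 strains the MPC3 change was smaller and depended on the set. In the puf3-15A set wild type read 18.7, 12.2 and 12.1 RPKM and rho0 22.7, 20.02 and 21.8, without overlap (0.57, SE 0.17, adjusted p = 0.013; 0.48 and 0.46, not called, without wild-type library 2 or 3). The puf3-15A allele alone read 12.3, 12.8 and 15.0, within the wild-type range, whereas puf3-15A rho0 read 30.4, 44.3 and 44.7, above every rho0 library (0.88, SE 0.17, adjusted p = 0.0029). In these 2 members, MPC3 (0.92, SE 0.24, adjusted p = 0.022) and PDC1 (0.17, SE 0.04, adjusted p = 0.020), the allele's effect differed between rho0 and wild type, against 18.8% of all features; for MPC3 the difference was not called without rho0 library 2 or puf3-15A rho0 library 2 or 3 (0.82 to 0.89), and for PDC1 without wild-type library 1 (0.16) or puf3-15A rho0 library 2 (0.15). The stress sums of rho0 and puf3-15A rho0 overlapped, at 2208 to 2500 and 2296 to 2496.

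In the oxidative phosphorylation set MPC3 read 17.0, 12.5 and 11.2 RPKM in wild-type libraries 1 to 3, 5.50, 4.32 and 4.65 in libraries 4 to 6, and 13.98, 17.98 and 24.6 in rho0. The rho0 libraries were all above the second trio and overlapped the first. The change of 1.03 (SE 0.33, adjusted p = 0.016) was 0.37, not called, against libraries 1 to 3, and was not called without rho0 library 3 (0.79, adjusted p = 0.11). The stress sums parted the wild-type trios in the same direction, 536 to 628 in libraries 1 to 3 and 325 to 341 in libraries 4 to 6.

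In the PUF3 set the wild type read 5.83, 48.8 and 38.6 RPKM of MPC3, the first library far below the others, so its spread covers rho0 (21.0, 25.4 and 38.0). The same library was low in the stress sum, at 317 against 719 and 706. Against the tighter puf3 group (6.62, 13.0 and 10.1), puf3 rho0 was higher (27.8, 26.8 and 33.6; 1.42, SE 0.50, adjusted p = 0.021), and so was atp7 puf3 (29.5, 24.5 and 26.8; 1.26, SE 0.50, adjusted p = 0.037). The first of these calls was lost without puf3 library 1 (1.17) or puf3 rho0 library 3 (1.32), the other without puf3 library 1 or 3 or any atp7 puf3 library (1.03 to 1.32) and with limma-voom. Over the 8 comparisons of cells without mitochondrial DNA that share no library, MPC3 was called higher in 5 and lower in 0, and lay above 0 in 7, with a median log2 of 0.80. In these MPC2 was called higher in 3 and lower in 1, and MPC1 higher in 1 and lower in 1. Across the same 8 comparisons 39.9% (rho0 of the PUF3 set) to 72% (treated wild type) of all features were called, so these counts are a description. The log2 ratio of MPC3 to MPC2 was higher in rho0 than in wild type by 0.54 (SD 0.38 over 4 sets; exact permutation test within sets, two-sided, p = 0.0425), which did not pass after adjustment over 4 ratios (0.0566); its value by set was 1.09, 0.20, 0.50 and 0.37. In the PUF3 set the ratio was -6.52, -3.78 and -4.06 in wild type and -4.94, -4.70 and -4.11 in rho0. Wild-type libraries 2 and 3 thus lay above every rho0 library. Without wild-type library 1 the MPC3 change of rho0 in that set, 1 of the 7 above 0, was -0.61 and not called. Footprints had a ratio of -4.27 and -4.30 in wild type, which lacked the a-specific signal, and -4.75 and -4.57 in rho0.

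The footprint-to-mRNA ratio of the 9 members that gave one lay above that of the median feature. In wild type the ratio of mean footprint RPKM to mean mRNA RPKM was 1.69 for PDC1, 2.12 for PDC5, 1.02 for PDA1, 1.01 for PDB1, 1.28 for LAT1, 0.821 for PDX1, 1.33 for MPC1, 1.38 for MPC2 and 1.47 for MPC3, against a median of 0.633 over 6016 features; PDC6 did not reach 1 RPKM in both assays and gave none. The mRNA and footprint libraries were prepared separately, and the footprint wild type lacked the a-specific signal, so the ratios are a description. PDC1 footprints of wild-type cells read 17402 and 18477 RPKM, those of rho0 cells 15987 and 15719.9, those of puf3 cells 16820.4 and 16714 and those of puf3 rho0 cells 14525 and 13897. Both puf3 rho0 libraries were below all others (-0.50 against puf3, SE 0.09, adjusted p = 0.006), and rho0 was below wild type (-0.30, SE 0.09, adjusted p = 0.042).

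MPC3 footprints read 42.5 and 31.3 RPKM in puf3 and 69.5 and 79.5 in puf3 rho0, without overlap (0.75, SE 0.19, adjusted p = 0.026), and PDX1 also rose there (0.39, SE 0.11, adjusted p = 0.037). These were 3 of 10 members for puf3 rho0 against puf3 (27.6% of features) and 1 for rho0 against wild type (24.5%). For puf3 against wild type (1.35%) and puf3 rho0 against rho0 (4.19%) limma called 0 members, with 0 and 4 at an unadjusted p under 0.05 and 0 and 1 by limma-voom, and for the interaction 0 (2.44%; 1 and 0). With 2 libraries a group, each of the 4 footprint calls was lost when some single library was left out: PDC1 in rho0 without wild-type library 2 or either rho0 library (-0.23 to -0.35), PDC1 in puf3 rho0 without its library 2 (-0.46), PDX1 without either puf3 library or puf3 rho0 library 2 (0.24 to 0.41), and MPC3 without puf3 library 2 or either puf3 rho0 library (0.51 to 0.81).

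The footprint change relative to the mRNA change was tested in 1 model over both kinds of library. Deletion of PUF3 in rho0 cells lowered this measure for PDA1 (-0.53, SE 0.10, adjusted p = 0.011) and PDB1 (-0.53, SE 0.13, adjusted p = 0.023), 2 of 10 members against 7.87% of features. PDA1 footprints read 420.0 and 428 RPKM in rho0 and 397 and 392 in puf3 rho0, and PDB1 footprints 408 and 346 against 350.1 and 305, while the mRNA of both was higher in puf3 rho0, as given above. The footprint-to-mRNA ratio of mean RPKM was 1.17 and 0.876 for PDA1 and 1.02 and 0.764 for PDB1 in rho0 and puf3 rho0. Growth and stress markers differed between the assays here. The stress sum was 1184 to 3149 in rho0 and 4509 to 5335 in puf3 rho0 mRNA, but 2053 to 3442 and 2246 to 2378 in footprints. The ribosome biogenesis sum was 3042 to 3381 and 1898 to 2347 in mRNA, and 1766 to 2040 and 1704 to 1708 in footprints. Their part in the result was not tested. LPD1 showed -0.41 (SE 0.09, adjusted p = 0.018) on the same measure, as the 1 called of the 9 partner genes. The PDB1 call was lost without rho0 footprint library 1, puf3 rho0 footprint library 2, rho0 mRNA library 2 or 3 or puf3 rho0 mRNA library 2 (-0.39 to -0.53), and the PDA1 call was kept without each. No member was called by limma for rho0 against wild type (7.91% of features) or puf3 against wild type (0.59%), with 0 at an unadjusted p under 0.05 and 0 by limma-voom in both. Without wild-type mRNA library 1, which stood apart in the PUF3 set, limma called MPC3 for puf3 against wild type (1.64, adjusted p = 0.037).

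The genes around these 10 were counted from 4 lists. In ethidium bromide-treated wild type 5 of 9 partners of the dehydrogenase (E3, kinases, phosphatases and lipoylation genes) rose and 3 fell, with a median log2 of 0.16. The kinase gene PKP2 rose by 1.18, while the lipoylation genes GCV3 and LIP5 changed by -0.90 and -0.58. Of 12 genes of pyruvate sources and other uses 6 rose and 3 fell (median 0.38), among them the lactate dehydrogenase genes CYB2 (4.32) and DLD1 (1.67) and the pyruvate kinase gene PYK2 (1.82). Of 13 genes acting after acetaldehyde and acetyl-CoA 7 rose and 1 fell (median 0.49), led by the aldehyde dehydrogenase gene ALD4 (3.94), the alcohol dehydrogenase gene ADH5 (2.29) and the citrate synthase gene CIT1 (1.42). Of 16 genes of decarboxylase regulators and thiamine metabolism, some of which are nearly identical copies, 6 rose and 3 fell (median 0.31; THI4 1.32, THI80 -1.45, PHO3 -1.03). The median of all features was 0.00 and 72% were called.

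In treated snf1 against treated wild type (61% of all features called) the same lists gave 3 higher and 6 lower, 3 and 7, 0 and 7, and 5 and 0, with medians of -0.23, -0.44, -0.58 and 0.37. ALD4 was lower by -3.60 and CYB2 by -1.66, ADH5 was at -1.12, and THI4 rose by 1.28. In treated snf1 mig1 against snf1 (30.8%) the counts were 1 and 0, 1 and 3, 4 and 5, and 2 and 4, with ALD4 at 1.47 and DLD1 at -0.61. With copper (71.4%) they were 5 and 1, 3 and 8, 7 and 5, and 11 and 3, with LPD1 at 0.67, the pyruvate carboxylase gene PYC2 at -0.78, ALD4 at 1.12 and THI4 at 1.49. In rho0 of the oxidative phosphorylation set (48.8%) they were 5 and 2, 5 and 3, 8 and 2, and 8 and 3, with CYB2 at 1.47, ALD4 at 1.26 and THI4 at 1.20.

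Finally, the pattern of each gene over the 25 mRNA groups, as the group mean of log2(RPKM + 1) less its set mean, was compared with 6056 others. Deposited RPKM were used here without rescaling, and the part of library scale in these correlations was not tested. The nearest patterns were TYE7 for PDC1 (r = 0.71), UPS3 for PDC5 (0.72), CSR2 for PDC6 (0.94), HSP82 for PDA1 (0.94), OSH7 for PDB1 (0.86), PEX19 for LAT1 (0.94), RKM5 for PDX1 (0.95), THO1 for MPC1 (0.83), HIS4 for MPC2 (0.88) and the small nucleolar RNA snR11 for MPC3 (0.91), followed by MTH1 (0.90). Among the members, MPC3 correlated at 0.78 with MPC1, 0.57 with PDC6 and 0.36 with MPC2.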

How the data were processed

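Poly(A) mRNA of 25 groups and ribosome footprints of 4 were analysed in 7 sets. The authors deposited RPKM values for 7126 features per library; CASAVA 1.9, STAR 2.6.1a, featureCounts and edgeR 3.28.1 with genome build R64 are named, per the submitters' processing notes; not given in the sources used here are gene lengths, read filters and the handling of multi-mapping reads. RPKM steps gave whole reads, within 0.05, for at least 94.06% of genes. Of all features 6048 matched the RefSeq gene table of R64.

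Libraries of a set were put on a common scale with trimmed means (30% of log ratios and 5% of levels left out). Features that reached 1 RPKM in 3 mRNA or 2 footprint libraries, the size of the smallest group, were tested: log2(RPKM + 1) was fitted with limma 3.58.1 in R 4.3.3, with a trended prior and Benjamini-Hochberg adjustment at 0.05 over all features. In all, 35 comparisons were made: 27 of single groups, 5 interactions and 3 of footprints relative to mRNA. Printed RPKM are as deposited; overlap of groups in tests was read after rescaling. The script was tested on simulated data. Ratios of members used an exact permutation test within sets (Python 3.11.15, numpy 2.4.6, pandas 2.3.3). Figures used matplotlib 3.10.9.

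The genes and lists were chosen with earlier results of these data known. All 10 members are named; from each pathway list up to 3 called genes with the smallest p are named, and for each gene those of most similar pattern. No libraries were duplicates: over 91 pairs of replicates the lowest chi-square per degree of freedom was 1.27. In the MIG1 set libraries with the same replicate number deviated together (correlation 0.128 to 0.493 over 3 pairs), which pairs them by the rule used; the replicate block changed none of the member calls of that set. No reference sequence was used. Alternatives tried were other scaling, filters, pseudocounts of 0.1 and 5, fewer groups in the fit, a replicate block, each library left out, limma-voom on recovered reads and each wild-type trio of the oxidative phosphorylation set.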

Additional observations from a re-analysis of the deposited data

Results flagged for a closer look

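PDC6 in the 6 wild-type libraries of the oxidative phosphorylation set had 1 library apart from the others: replicate 1 read 1.05 RPKM, and its gap to the nearest library was 0.710563 of the whole range of 0.239 to 1.05. It was the only such case in the 10 values tested, 1 for each gene in that group. Chance gives about 1 in 20 for each value tested, so 1 case among 10 is not unusual.

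Of 50 interaction tests of the 10 genes, 9 passed the limma threshold, so that the effect of 1 factor differed between the groups of the other. For puf3 by loss of mitochondrial DNA these were PDA1 (0.296026) and LAT1 (0.261353), on the log2 scale. For puf3-15A by loss of mitochondrial DNA they were PDC1 (0.166887) and MPC3 (0.91614). For snf1 by ethidium bromide they were PDC6 (-0.787877), LAT1 (-0.203639), MPC1 (-0.584962), MPC2 (-0.293001) and MPC3 (-3.29096), in which the snf1 groups lacked the a-specific signal that both SNF1 groups had.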

How the results depend on the processing

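Of 93 member calls 55 were kept in every setting, 63 whichever single library was left out and 66 in the settings other than leaving out libraries. Called members by set, as reported and over the fits without each replicate, were 10 and 9 to 12 (oxidative phosphorylation), 16 and 13 to 20 (PUF3), 12 and 10 to 13 (puf3-15A), 21 and 19 to 23 (SNF1), 3 and 2 to 3 (MIG1), 16 and 13 to 16 (INH1), 4 and 0 to 3 (footprints), 9 and 7 to 11 (interactions) and 2 and 1 to 5 (footprints relative to mRNA). Counts that moved by over 1.5 times were 22 with wild-type libraries 4 to 6 alone in the oxidative phosphorylation set, 25 without rescaling in the PUF3 set, 6 with limma-voom in the MIG1 set and 1 in the footprints when only the groups compared were fitted. Against wild-type libraries 4 to 6 alone the share of all features called also rose, from 6.22% to 42% in cor1 and 6.62% to 42.5% in cox9. It rose from 45.3% to 59.3% in atp7 and from 48.8% to 59.4% in rho0. The other counts of this paragraph stand without such a share and are not read as results about the members. The causes of these shifts were not tested.

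Without rescaling the direction turned for PDA1 in snf1 (0.1331) and in treated snf1 against treated wild type (0.204), PDX1 in the latter (0.007798) and PDB1 in rho0 of the INH1 set (0.0671). The replicate block, with numbers that pair libraries only in the MIG1 set, lost 7 of 93 calls: PDA1 in atp7 (0.0794) and MPC3 in rho0 (0.400) of the oxidative phosphorylation set, PDC6 in puf3 rho0 (0.433) and puf3-15A rho0 (0.707), MPC2 in puf3-15A rho0 (0.133), PDB1 in rho0 of the INH1 set (-0.0418) and PDC1 footprints in rho0 (-0.305).

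Among the ratios of rho0 to wild type, PDB1 to PDA1 was no longer called without the oxidative phosphorylation set (-0.03183), the puf3-15A set (-0.04694) or the INH1 set (-0.0449), or with the replicate block pairing numbers (-0.04597); without each replicate it was -0.0559 to -0.0411. Without the PUF3 set the others were called: MPC3 to MPC2 at 0.6517, PDC5 to PDC1 at -0.1525 and PDX1 to LAT1 at -0.05792. Without each replicate these were 0.323 to 0.665, -0.0739 to -0.0208 and -0.0599 to -0.0366. PDC6, at 4 to 225 reads per library, is limited by depth.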
